A study of Homo sapiens with 2 samples.

Results

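The genes described here are those of the MHC class I heavy chains HLA-B, HLA-C, HLA-E, HLA-F and HLA-G, of the light chain B2M, and of the peptide loading proteins TAP1, TAP2 and TAPBP. They were taken as every probe set to which the platform annotation gives exactly 1 gene symbol that is one of these 9, which found 28 of the 41097 single-gene probe sets and of the 54675 probe sets in all. The cells were CL1-5, a highly invasive line of human lung adenocarcinoma grown in medium with fetal bovine serum. One culture was exposed for 24 h to analogue 3, a synthetic desmosdumotin C derivative with iodo, tripropyl and methoxy substituents, at 0.11 µM, and the other to the solvent DMSO, given at 0.05 µg/mL; whether the analogue 3 culture held the same amount of DMSO is not stated in the sources used here. That dose of analogue 3 equals its median effective dose in CL1-5 cells as the submitters give it, and the comparison asked which transcripts differ after exposure.

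Total RNA of each culture was hybridised to 1 array, of the Affymetrix type U133 Plus 2.0, so there is no replicate, no test and no p-value for any difference below. Intensities are linear multiples of the array median. In this bulk RNA, fewer expressing cells and less RNA per cell cannot be told apart. Of the 6 epithelial carcinoma markers, 2 reached 32 times the array median, and the highest was the keratin gene KRT18 at 457.9 with analogue 3 and 460.8 with DMSO. EPCAM, CDH1, KRT7 and KRT19 lay under that level on both arrays. None of the 8 leukocyte markers found on the array reached it, and their summed intensity was 3.75 with analogue 3 and 4.16 with DMSO.

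MHC class I molecules carry peptides from inside the cell to its surface, where CD8+ T cells and natural killer cells read them. The heavy chain pairs with beta-2 microglobulin in the endoplasmic reticulum, the TAP1 and TAP2 proteins pump peptides in from the cytosol, and tapasin, the product of TAPBP, bridges the transporter and the empty heavy chain. Interferons raise the transcription of most of these genes in many cell types, through response elements in the promoters. Tumour cells with little class I on their surface are poorly seen by CD8+ T cells.

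The upstream sequences are shown first, as a description, since the interferon-stimulated response element, or ISRE, is an element these promoters are known for. Whether any upstream element bears on the differences was not tested. Each is the stretch of 250 bases before a RefSeq transcription start (GRCh38.p14), written along the gene's strand, and capitals mark matches on either strand to the ISRE core (GAAA and GAAA, 2 bases apart) or to the shorter GAANNGAAA. HLA-B stands for the classical heavy chains, HLA-G for a heavy chain whose window has no match, and the other 3 for the light chain, the transporter and tapasin.
HLA-B, chr6:31357180-31357429, minus strand: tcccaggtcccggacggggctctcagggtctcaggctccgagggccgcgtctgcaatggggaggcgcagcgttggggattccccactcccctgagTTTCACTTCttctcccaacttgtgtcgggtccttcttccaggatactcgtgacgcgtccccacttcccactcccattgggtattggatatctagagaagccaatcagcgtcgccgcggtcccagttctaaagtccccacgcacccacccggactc
HLA-G, chr6:29827575-29827824, plus strand: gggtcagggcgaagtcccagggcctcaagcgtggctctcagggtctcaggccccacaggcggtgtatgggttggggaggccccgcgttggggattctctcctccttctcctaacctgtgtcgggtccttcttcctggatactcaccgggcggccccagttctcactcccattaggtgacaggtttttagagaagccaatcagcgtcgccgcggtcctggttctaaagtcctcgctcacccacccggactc
B2M, chr15:44711267-44711516, plus strand: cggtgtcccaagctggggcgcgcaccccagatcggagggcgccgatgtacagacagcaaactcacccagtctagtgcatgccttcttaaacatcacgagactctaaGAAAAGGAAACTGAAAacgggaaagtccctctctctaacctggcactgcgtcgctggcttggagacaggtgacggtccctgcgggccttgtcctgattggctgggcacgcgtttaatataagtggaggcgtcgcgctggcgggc
TAP1, chr6:32853705-32853954, minus strand: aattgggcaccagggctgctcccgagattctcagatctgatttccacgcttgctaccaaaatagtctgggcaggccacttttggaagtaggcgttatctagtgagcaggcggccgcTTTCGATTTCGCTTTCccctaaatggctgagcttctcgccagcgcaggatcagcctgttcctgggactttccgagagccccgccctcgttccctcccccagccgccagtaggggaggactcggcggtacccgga
TAPBP, chr6:33314079-33314328, minus strand: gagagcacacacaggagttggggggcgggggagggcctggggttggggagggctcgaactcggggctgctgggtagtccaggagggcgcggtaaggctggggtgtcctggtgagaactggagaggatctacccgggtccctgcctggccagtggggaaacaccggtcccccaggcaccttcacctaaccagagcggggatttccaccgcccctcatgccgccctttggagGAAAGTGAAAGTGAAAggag

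Promoter windows were found for 8 of the 9 genes, as 11 windows in all, with 3 starts for HLA-G and 2 for TAP1. The full ISRE core was present upstream of HLA-F, B2M, TAP1, TAP2 and TAPBP, in 1 window each, which is 5 of the 11 windows, while 3.02% of all 35116 windows of this length held it. In B2M, TAP1 and TAPBP, pairs of cores overlapped. The B2M pair began 144 and 138 bases before the start, and the TAPBP pair 20 and 14 bases before it. The shorter core, added after the sequences had been read, was present upstream of HLA-B, HLA-C and TAP2, and in 6.56% of all windows. It reached from 155 to 147 bases before the HLA-B start and from 151 to 143 bases before the HLA-C start. Neither core was in any of the 3 HLA-G windows. Since that core was chosen with these sequences in view, its matches in HLA-B and HLA-C are a description only.

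Other elements, apart from the gamma-activated site, were more common in promoters at large than either ISRE core. GGGA and CC 4 bases apart, the letters used for NF-κB sites, were in 6 of the 11 windows, of 6 genes, and in 22.6% of all windows. CCAAT, the NF-Y box, was also in 6 of the 11 windows and in 32% of all windows. TGACG, the core bound by factors of the CREB and ATF family, was upstream of HLA-B, HLA-C, B2M and TAP2 and in 21.2% of all windows. TTCNNNGAA, the gamma-activated site, was upstream of TAP1 alone and in 6.57% of all windows. All were searched on both strands and can overlap one another, and a match is a run of letters, not a shown binding site.

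**Figure D1:**
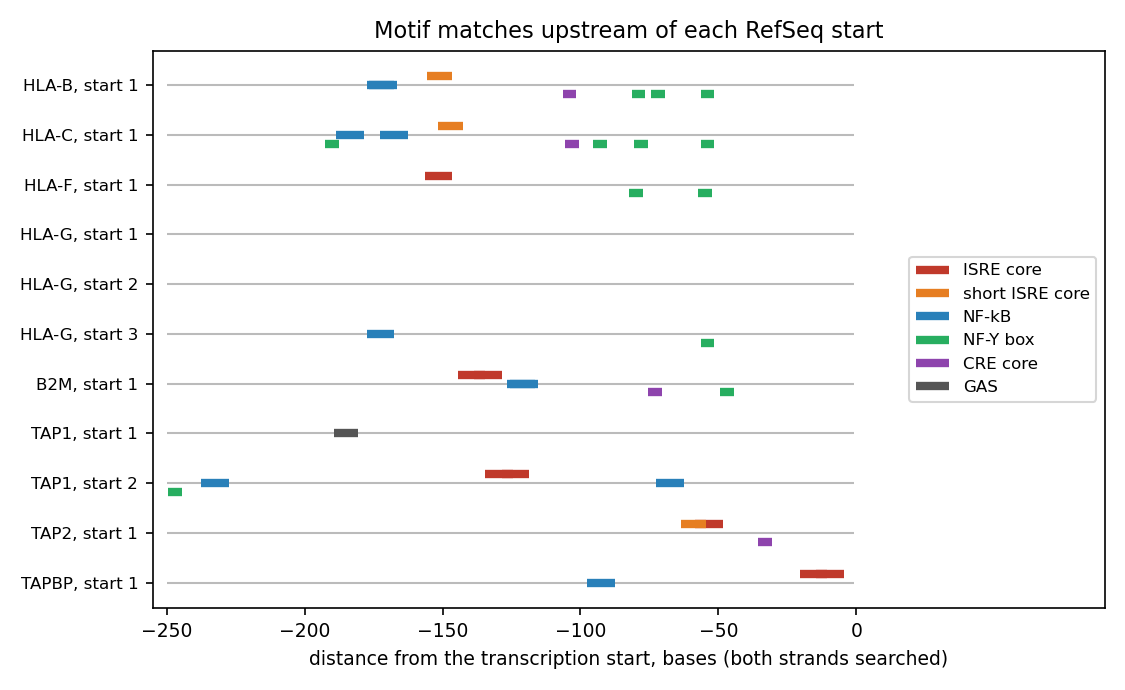
Matches to 6 short motifs in the 250 bases upstream of each RefSeq start of the genes, with distance from the transcription start in bases on the x axis and 1 line per start. Bars are matches on either strand, coloured by motif; ISRE core matches of either length lie between 156 and 119 bases before the start in HLA-B, HLA-C, HLA-F, B2M and the second TAP1 start and within 63 bases of it in TAP2 and TAPBP.

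On the arrays, 27 of the 28 probe sets were lower with analogue 3 than with DMSO, against 51.1% of all single-gene probe sets. The median log2 difference of the 28, analogue 3 minus DMSO, was -0.70, or 1.62-fold lower, and that of all single-gene probe sets was -0.01. Of the 28, 18 were at least 1.5-fold lower and none was 1.5-fold higher, where 8.59% of all single-gene probe sets were that much lower and 6.81% that much higher. Among the probe sets bright on both arrays, the TAP1 one lay furthest down and the B2M ones least far.

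Low intensities are noisy, so every value under 32 times the array median (log2 5) was set to that floor before further comparison. A probe set is called measured here if either array lay at that floor or higher, which held for 20 of the 28. All 20 floored differences were below 0, where 50.2% of the measured single-gene probe sets were. At least 2-fold lower were 3 of the 20 (2 of HLA-E and the 1 of TAP1), and none was 2-fold higher, where 2.39% of the measured single-gene probe sets were 2-fold lower and 3.28% were 2-fold higher. At 1.5-fold, 17 of the 20 were lower, against a background of 8.57%. A probe set measured only through the DMSO array had to be lower, which holds for 200904_at of HLA-E and 225973_at of TAP2. Without them, 18 probe sets reached the floor on both arrays, and 16 of these were at least 1.5-fold lower, against 8.13% of the 5818 single-gene probe sets that did so.

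The only error that 2 arrays can show is the disagreement between probe sets of a gene. Over 1127 genes with at least 2 probe sets at the floor on both arrays, the SD of a single probe set's log2 difference was 0.17. This leaves out culture, RNA and hybridisation error. Among the 18 bright probe sets of the class I and loading genes, the difference nearest 0 was -0.28, in B2M, and the next was -0.40, also in B2M. The other 16 lay between -1.15 and -0.65, more than 3 such SDs from 0.

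**Figure D2:**
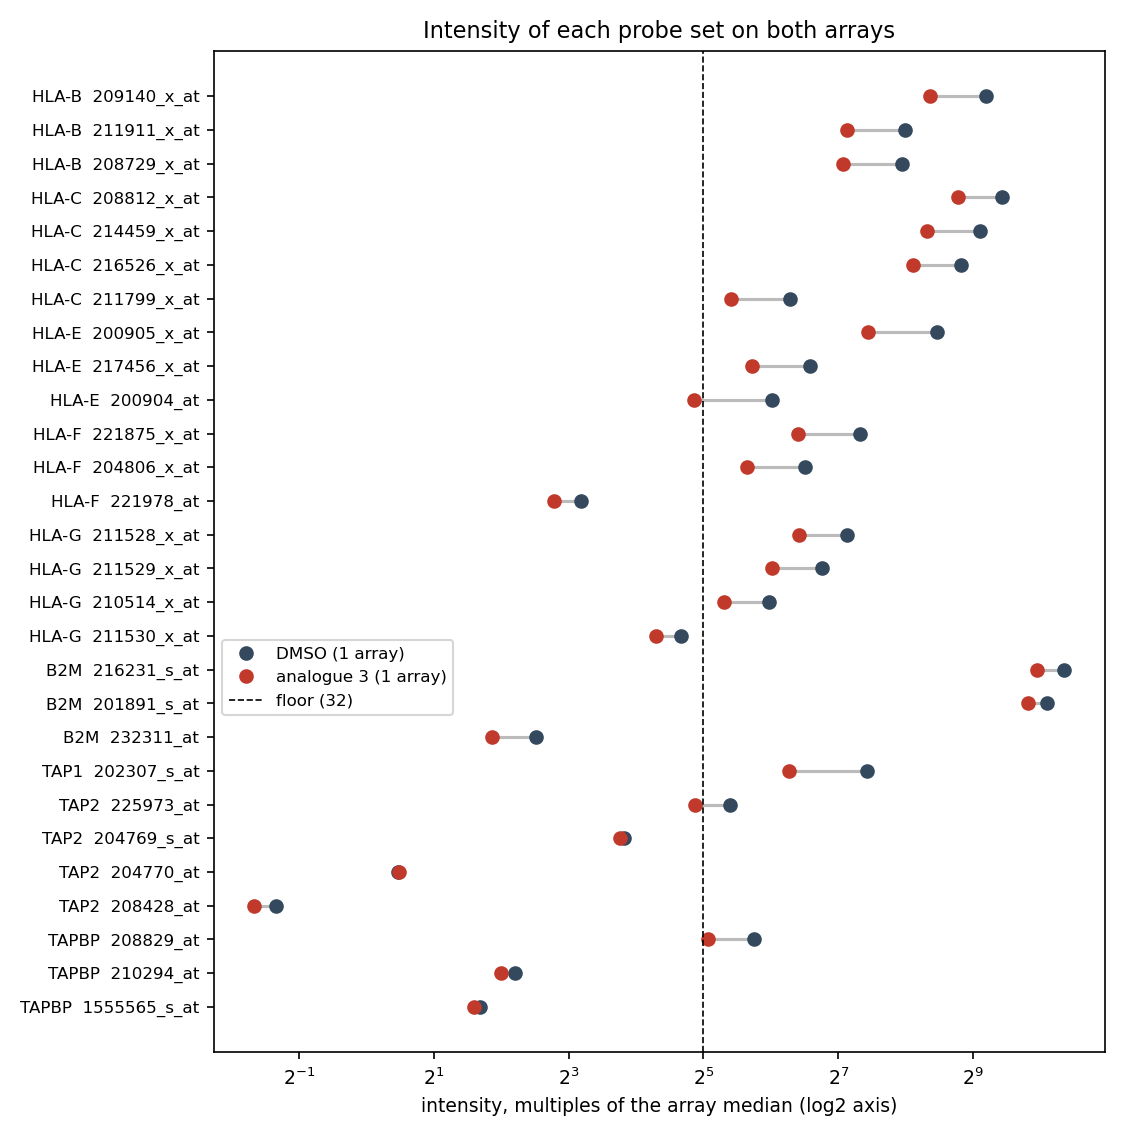
Intensity of each of the 28 probe sets, in multiples of the array median on a log2 axis, with 1 red point for the analogue 3 array and 1 dark point for the DMSO array; the dashed line is the floor of 32. The red point lies left of the dark one in 27 of 28 probe sets, and the gap is wider for TAP1 and the heavy chains than for the 2 bright B2M probe sets.

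HLA-B and HLA-C encode classical heavy chains, which present peptides to CD8+ T cells. The 3 HLA-B probe sets (209140_x_at, 211911_x_at and 208729_x_at) read 330.3, 139.9 and 134.6 with analogue 3 and 582, 254 and 246 with DMSO. Each was lower with analogue 3, by 1.76-, 1.81- and 1.83-fold, and their log2 differences spanned 0.05, well within the SD of 0.17. The 4 HLA-C probe sets (208812_x_at, 214459_x_at, 216526_x_at and 211799_x_at) read 437, 319, 277 and 42.4 with analogue 3 and 687, 551, 451 and 77.8 with DMSO. They were 1.57-, 1.73-, 1.63- and 1.83-fold lower, a wider span of 0.22 on the log2 scale. The brightest HLA-C probe set showed the smallest of these differences and the dimmest the largest.

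HLA-E encodes a non-classical heavy chain whose peptides come mostly from the leader sequences of other class I chains, and which is read by the NKG2A receptor of natural killer cells. Its probe set 200905_x_at read 175 with analogue 3 and 351 with DMSO, and was 2.01-fold lower. Its probe set 217456_x_at read 53.0 and 95.9, and was 1.81-fold lower. The remaining one, 200904_at, read 29.1 against 64.5, and since the analogue 3 value was under the floor it was at least 2.02-fold lower. All 3 HLA-E probe sets were thus lower, and 2 of them lay just past the 2-fold line. Once a loess trend on level had been removed, the bound for 200904_at was -0.99 on the log2 scale, just short of 2-fold.

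HLA-F and HLA-G encode non-classical heavy chains of restricted expression; HLA-G is best known from the placenta. The bright HLA-F probe sets, 221875_x_at and 204806_x_at, read 85.0 and 50.1 with analogue 3 and 159.5 and 91.0 with DMSO, and were 1.88- and 1.82-fold lower. The third, 221978_at, reached the floor on neither array, at 6.86 and 9.07. For HLA-G, whose upstream windows held neither ISRE core, 3 of 4 probe sets (211528_x_at, 211529_x_at and 210514_x_at) lay above the floor with either treatment, at 85.4, 64.6 and 39.3 with analogue 3 and 140.2, 109 and 62.6 with DMSO. They were 1.64-, 1.68- and 1.59-fold lower, and the fourth, 211530_x_at, read 19.7 against 25.5.

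All 14 heavy chain probe sets at the floor on both arrays end in _x_at, a suffix of the array's maker for probe sets that can bind several similar transcripts. Their log2 differences ran from -1.01 to -0.65 with a median of -0.84 and an SD of 0.10, smaller than the 0.17 between probe sets of one gene at large. Signal in these 14 can come from more than 1 class I gene, so they are not 14 independent readings and the 5 heavy chain genes cannot be ranked by them; the share of shared signal was not tested. The heavy chain probe set without _x_at that reached the floor on an array was 200904_at of HLA-E. The pseudogene HLA-J, the measured member of a list of 5 class I pseudogenes, read 30.1 with analogue 3 and 44.2 with DMSO in an _x_at probe set, or at least 1.38-fold lower, having been measured only through the DMSO array.

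B2M encodes beta-2 microglobulin, the light chain shared by all class I molecules, and lies on chromosome 15 rather than in the MHC region of chromosome 6. Its upstream window holds a pair of overlapping ISRE cores, as those of TAP1 and TAPBP do. Its probe set 216231_s_at read 993 with analogue 3 and 1307 with DMSO, and was 1.32-fold lower. Its probe set 201891_s_at read 903 and 1093, and was 1.21-fold lower. The third, 232311_at, was dim at 3.65 and 5.72. Both bright B2M differences were smaller than each of the 14 bright heavy chain differences, and the nearest values were -0.40 for B2M and -0.65 for HLA-C on the log2 scale, a gap that no replicate could test.

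**Figure D3:**
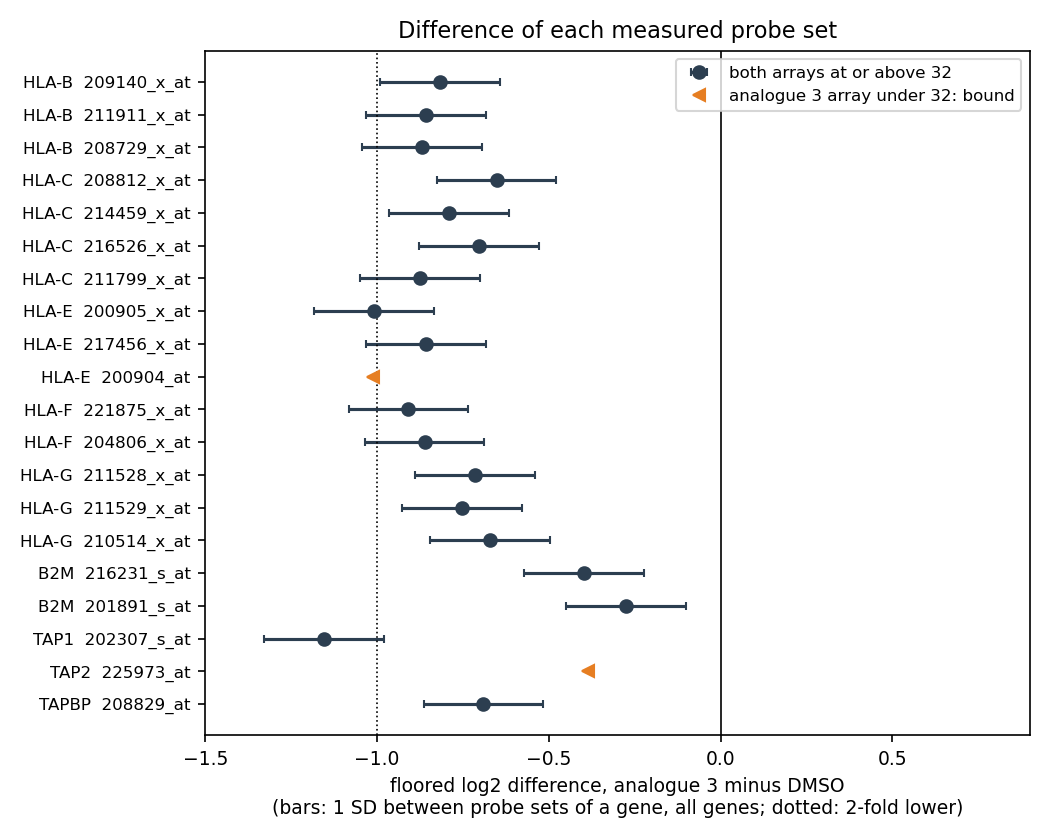
Floored log2 difference, analogue 3 minus DMSO, of the 20 measured probe sets; circles have both arrays at or above the floor of 32, and triangles are bounds because the analogue 3 array lay under it. Bars are 1 SD between probe sets of a gene over all genes (0.17, not a replicate error); every point lies below 0, with TAP1 at -1.15 and the B2M probe sets at -0.40 and -0.28.

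TAP1 encodes one of the paired subunits of the peptide transporter, and its single probe set, 202307_s_at, read 77.2 with analogue 3 and 171.8 with DMSO, or 2.23-fold lower. With a floor of log2 7 in place of log2 5 its bound was -0.42 on the log2 scale. TAP2, the partner subunit, had 4 probe sets, of which 225973_at read 29.2 and 41.8 and was at least 1.31-fold lower. The others were under the floor on both arrays, at 13.5 and 14.2 for 204769_s_at, 1.39 and 1.39 for 204770_at, and 0.316 and 0.393 for 208428_at. The TAP1 and TAP2 differences thus rest on 1 bright and 1 dim probe set.

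TAPBP, the tapasin gene, had 1 of 3 probe sets above the floor, 208829_at, which read 33.4 with analogue 3 and 54.0 with DMSO and was 1.61-fold lower. The other TAPBP probe sets, 210294_at and 1555565_s_at, read 3.999 and 3.03 with analogue 3 and 4.63 and 3.21 with DMSO. The 8 probe sets of all 9 genes that stayed under the floor had a median log2 difference of -0.26, and 1 of them, 232311_at of B2M, was over 1.5-fold lower. The single probe set of the 28 above 0 was 204770_at of TAP2, at 0.002 on the log2 scale.

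**Figure D4:**
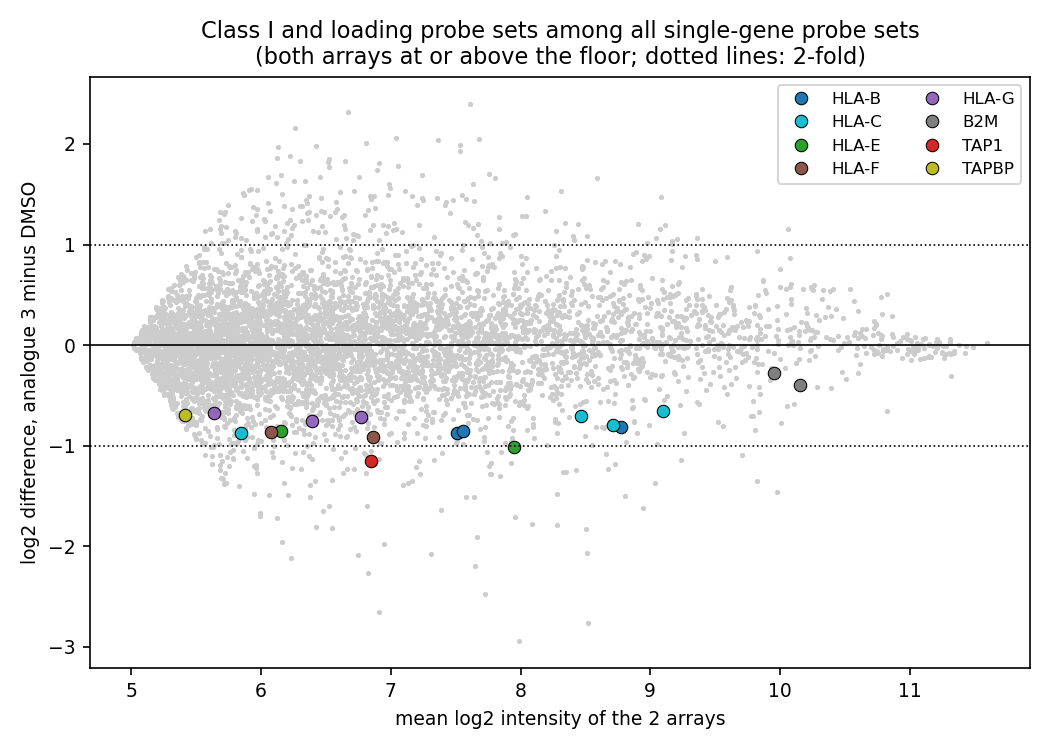
Log2 difference, analogue 3 minus DMSO, against the mean log2 intensity of the 2 arrays for the 5818 single-gene probe sets that reached the floor on each array (grey points), with the 18 of the class I and loading genes in colour. The coloured points lie between -1.15 and -0.28, and the 2 brightest, both of B2M, lie nearest 0. The grey points are centred on 0 (median 0.01).

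For comparison with other genes, each gene was represented by its brightest single-gene probe set. By that rule the 9 genes had a median floored log2 difference of -0.72, and 2 of them (HLA-E and TAP1) were at least 2-fold lower, where 2.67% of the 5050 measured genes were; all measured genes had a median of -0.01. Of the 9, TAP2 was measured only through the DMSO array and so had to be lower. The 18 probe sets of these genes at the floor on both arrays, none of TAP2, had a median of -0.80. The same rule applied to antiviral genes that interferon induces gave a median of -1.62 over 14 measured of 24 on the array, with 12 of the 14 at least 2-fold lower. IFIH1, IFIT2, ISG20 and USP18 were measured only through the DMSO array and so had to be lower; over the other 10 the median was -1.69, with 9 at least 2-fold lower. Among these 10, the log2 differences ran from -2.65 in MX1 to -0.78 in OAS3. MX1 read 47.8 with analogue 3 and 301 with DMSO, and OAS3 read 93.9 and 161. The class I and loading genes were thus lower, like the antiviral genes, and by less in the median, a difference that 1 array per group cannot test.

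Signalling genes upstream of the promoters were in part measured. Of the interferon signalling list, 6 of 10 on the array were measured, with a median of -0.48, 3 of them at least 1.5-fold lower (9.13% of all measured genes were) and none 2-fold different. IRF9, the DNA-binding subunit of the ISGF3 factor, read 70.5 with analogue 3 and 118 with DMSO, or 1.68-fold lower. The interferon gamma receptor genes IFNGR2 and IFNGR1 were 1.59- and 1.54-fold lower, and JAK1, a kinase of these receptors, was 1.27-fold lower, with a second probe set at -0.08 on the log2 scale. The negative regulator gene SOCS3 read 37.3 against 27.5, or at least 1.17-fold higher. SOCS3 and TYK2 were measured only through the analogue 3 array and so had to be higher; the median over the other 4 was -0.64, and over all 10 with no floor -0.31.

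Among 14 class I promoter factors on the array, 4 were measured, and 1 was at least 2-fold lower, where 2.67% of all measured genes were. It was RFXANK, a subunit of the RFX complex that binds class I and class II promoters, at 31.7 with analogue 3 and 68.3 with DMSO, or at least 2.14-fold lower; it was measured only through the DMSO array and so had to be lower. RELA, CREB1 and NFYC differed by -0.27, -0.17 and 0.13 on the log2 scale, and a second CREB1 probe set gave 0.19; NFYC was measured only through the analogue 3 array. NLRC5, the class I transactivator, was dim on both arrays, at 0.592 and 3.59. IRF1, an activator of the ISRE, read 8.05 and 13.8, and RFX5 22.3 and 26.3. None of these 3 reached the floor, so no fold is given.

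Peptides for class I come from the proteasome, whose interferon-inducible subunits PSMB8 and PSMB9 replace PSMB5 and PSMB6. PSMB8 read 59.3 with analogue 3 and 81.4 with DMSO, and PSMB9 read 63.7 and 87.5, so that each was 1.37-fold lower. PSMB10, the third inducible subunit, read 41.9 and 38.4, a log2 difference of 0.12. The constitutive subunit genes PSMB5, PSMB6 and PSMB7 were 1.41-, 1.15- and 1.13-fold higher. The inducible PSMB8 and PSMB9 and the constitutive PSMB5 and PSMB6 therefore differed in opposite directions, each by less than 1.5-fold. PSMB10 and PSMB7 were both higher. The PSMB10 difference lay within the SD of 0.17 for 1 probe set, and those of PSMB6 and PSMB7, 0.20 and 0.18 on the log2 scale, just past it. The median of the constitutive genes, 0.20, was 0.11 after loess removal and 0.12 after quantile normalization.

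PSME1, an activator subunit of the proteasome, was 1.36-fold lower, at 229 against 311. ERAP1, the aminopeptidase that trims peptides in the reticulum, read 31.9 and 52.2, or at least 1.63-fold lower, and ERAP2 was under the floor at 2.56 and 2.63. NPEPPS, a cytosolic aminopeptidase gene, was 1.31-fold higher. Over the list of peptide supply and trimming, 7 of 9 genes on the array were measured, with 4 below 0 (51.5% of all measured genes were), 3 above 0 and a median of -0.45. That median was -0.043 over 9 genes with no floor and -0.062 over 2 genes with a floor of log2 7. ERAP1 was measured only through the DMSO array and so had to be lower. Of the other 6 measured genes, 3 lay below 0 and 3 above 0, with a median of -0.19.

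The chaperones that fold and load heavy chains did not share one direction. Calreticulin (CALR) read 105.5 with analogue 3 and 89.4 with DMSO, and was 1.18-fold higher, with a second probe set at 0.29 on the log2 scale. Calnexin (CANX) was 1.17-fold lower, with other probe sets at -0.12 and -0.07 on the log2 scale. PDIA3, the oxidoreductase ERp57 of the loading complex, read 147 and 212, or 1.44-fold lower. HSPA5, the general chaperone of the reticulum, was 2.56-fold lower and was the 1 of 6 measured genes in that list past 2-fold, where 2.67% of all measured genes were 2-fold lower and 3.47% were 2-fold higher. TAPBPL, a tapasin relative, was under the floor, at 0.902 and 0.868.

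**Figure D5:**
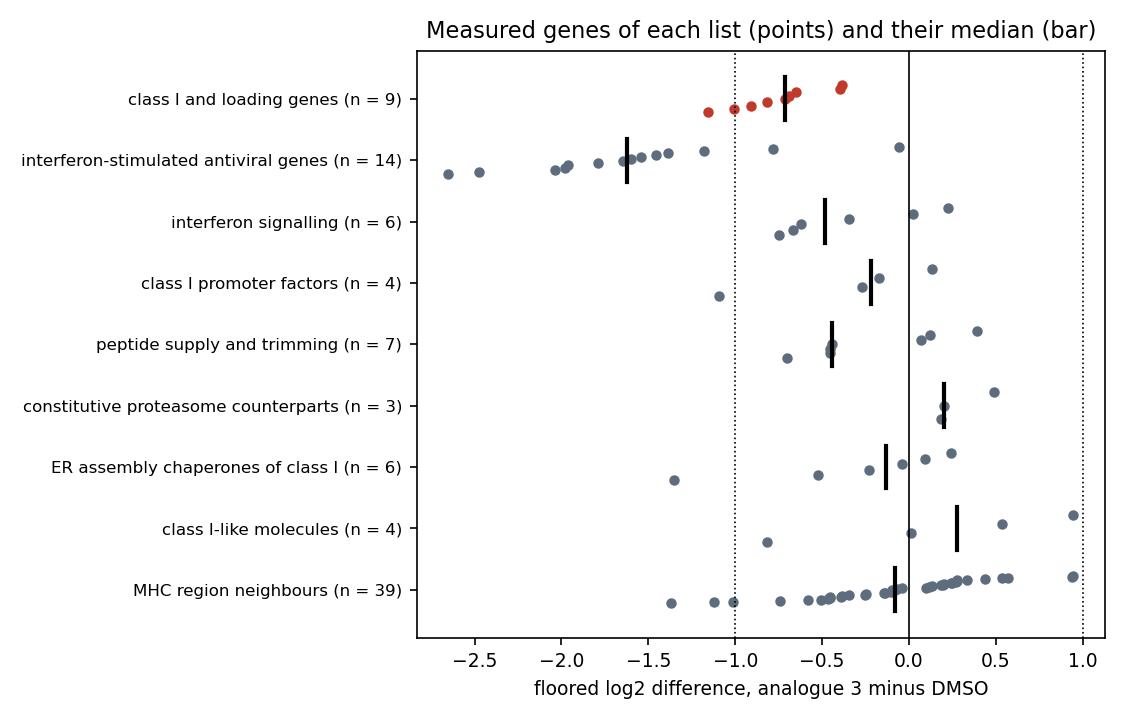
Floored log2 difference, analogue 3 minus DMSO, of each measured gene (points, brightest probe set) in the class I and loading genes and in 8 lists, with black bars at the medians and dotted lines at 2-fold. Some points are bounds because an array lay under the floor; the medians run from -1.62 for the antiviral genes through -0.72 for the class I and loading genes to 0.27 for class I-like molecules, a median that was -0.034 with no floor.

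Not every class I relative was lower. MICA and MICB encode stress-induced relatives of class I that bind no peptide and are ligands of the activating receptor NKG2D. MICB read 259.8 with analogue 3 and 134.8 with DMSO, or 1.93-fold higher, and MICA read 112 and 77.4, or 1.45-fold higher. ULBP2, another NKG2D ligand, read 35.7 and 63.0 and was 1.76-fold lower. PROCR, the endothelial protein C receptor, differed by 0.01 on the log2 scale. The other 8 of the 12 class I-like genes were under the floor on both arrays, as were all 13 class II pathway genes found on the array, whose highest value was 11.6, for HLA-DQB1 with DMSO.

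Except for B2M, the genes lie in the MHC region of chromosome 6, so the other genes of the stretch from HLA-F to TAPBP were set beside them. RefSeq (GRCh38.p14) places 285 other genes there, of which 125 had a single-gene probe set and 39 were measured. Their median floored log2 difference was -0.08, with 22 below 0 and 17 above 0, and was 0.20 over 17 genes without _s_at and _x_at probe sets. At least 2-fold lower were 3 of the 39, SNHG32, NEU1 and RGL2, and none was 2-fold higher, where 2.67% and 3.47% of the measured genes were. TCF19 read 36.8 with analogue 3 and 9.07 with DMSO, but the floor held its log2 difference to 0.20. It was measured only through the analogue 3 array, so that difference had to be above 0. With no floor, 6 of the 125 genes were at least 2-fold lower and 1 was at least 2-fold higher. Protein-coding genes there run in the order TAP2, PSMB8, TAP1, PSMB9, and within that cluster TAP1 was 2.23-fold lower while PSMB8 and PSMB9, on either side of it, were each 1.37-fold lower. The antisense gene HLA-F-AS1 read 36.7 with analogue 3 and 27.6 with DMSO, or at least 1.15-fold higher; it was measured only through the analogue 3 array, so its floored difference had to be above 0.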

How the data were processed

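RNA of 2 CL1-5 cultures was measured on 1 array each. The intensity values the authors deposited are linear; the submitters' processing notes name GCRMA, and its version is not given in the sources used here. Each deposited column had a median of 1, which shows a division by the median that no label states. Gene names are from GEO's platform annotation; 1801 carried several symbols and 11777 were not listed there. The deposited intensities were log2-transformed, floored at log2 5 and subtracted (Python 3.11.15, pandas 2.3.3). On the analogue 3 array 13.1% of probe sets reached the floor, and with DMSO 13.4%. The number of arrays limits precision. The calculation was tested on simulated data. All probe sets of the 9 genes are named, and in each list at most the 4 largest measured differences plus genes fixed by name; other names were chosen after their values were seen. The members and lists were chosen with earlier results of these data known. Alternatives were other floors (log2 1, 4, 7 or none), median centring, loess (span 0.3, statsmodels 0.14.6), quantile normalization, no _s_at or _x_at probe sets, and thresholds of 1.5- and 3-fold. Promoter sequences are RefSeq's (GRCh38.p14).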

Additional observations from a re-analysis of the deposited data

How the results depend on the processing

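All measured probe sets of the class I and loading genes stayed below 0 under each floor down to log2 1, median centring, loess removal, quantile normalization and omission of _s_at and _x_at probe sets, and with no floor 27 of 28 did. Some of these signs were fixed in advance, since a probe set measured only through the DMSO array had to be lower. At log2 5 this held for 200904_at of HLA-E and 225973_at of TAP2. Without _s_at and _x_at probe sets, only 208829_at of TAPBP remained beside them. At log2 7 it held for 202307_s_at of TAP1, 211528_x_at of HLA-G and 221875_x_at of HLA-F. The median log2 difference of the measured probe sets ran from -0.85 (quantile normalization) to -0.68 (floor of log2 7, 12 probe sets). The count at least 2-fold lower, 3 of 20, was 2 after loess removal, 1 of 12 with a floor of log2 7, 1 of 3 without _s_at and _x_at probe sets, 17 with a threshold of 1.5-fold and 0 with a threshold of 3-fold. The 1 of 3 was 200904_at, which had to be lower, while 208829_at, at the floor on both arrays, was 1.61-fold lower. The floor and the probe sets left out change which values enter. Other list medians moved with the floor. Peptide supply and trimming was -0.062 over 2 genes with a floor of log2 7 and -0.043 over 9 with a floor of log2 1 or none. Interferon signalling was -0.18 over 2 genes at log2 7 and -0.31 over 10 at log2 1 or with none. Antiviral genes were -0.94 at log2 7, -1.92 at log2 1 and -1.94 with none. Class I-like molecules were 0.95 at log2 7, where MICB alone was left, 0.013 at log2 4, -0.0087 at log2 1 and -0.034 with none. Without _s_at and _x_at probe sets the chaperone median was -0.52 over 3 genes and that of the MHC region 0.20 over 17. No paired analysis was possible because each group is 1 array.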
